A study of Mus musculus with 6 samples.

Results

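The BCL2 family decides at the outer mitochondrial membrane whether a stressed cell undergoes apoptosis. Its guards BCL2, BCL-XL and MCL1 hold in check the effectors BAX and BAK, which form pores in that membrane and let cytochrome c out, and the BH3-only proteins carry the stress signal by binding guards or effectors through a short helix, the BH3 motif. Heart muscle cells have very many mitochondria and hardly divide, so this decision has been studied widely in heart attack and in cultured heart cells kept without oxygen. The 10 genes described here were taken by symbol from the 21741 gene symbols of the count tables: the guards Bcl2, Bcl2l1 (BCL-XL) and Mcl1, the effectors Bax, Bak1 and Bok, and the BH3-only genes Bid, Bad, Bcl2l11 (BIM) and Bmf. Each had a row in every library, and all 10 passed the filter on low counts.

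The study sequenced RNA of mouse primary cardiomyocytes from heart tissue in 6 libraries. In 3 libraries the cells had received the control adenovirus Adv-NC (genotype label WT) and in 3 the adenovirus Adv-ABHD11 (genotype label ABHD11 overexpression), and every library came from cells kept in hypoxia for 24 h. ABHD11 is a mitochondrial hydrolase, and the series title links it with mitochondrial transcription and with ferroptosis, an iron-dependent cell death that is distinct from apoptosis. The labels gave 1 batch for all libraries and neither strain nor age, and did not say whether replicates were separate cultures. The p-values set the difference between groups against a spread estimated from these libraries with information shared over genes, and that spread may be technical. The adenovirus reaches whatever cells the culture holds, and the labels name no promoter for its insert.

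Library totals ran from 16292756 to 20338700 counts, so 1 count was worth 0.0492 to 0.0614 CPM (the count scaled to a fixed library size), and levels below are CPM on library sizes scaled by TMM. The transcriptomes of the groups lay far apart: of 12790 genes tested, 29.9% were higher and 29.5% lower with Adv-ABHD11 at an adjusted p under 0.05, 15.6% passed with a change of at least 2-fold, and for 63.2% the libraries of the groups did not overlap in CPM. The 10 cardiomyocyte markers were detected in all libraries and all 10 were higher with Adv-ABHD11, their summed level running from 19653 to 21033 CPM with Adv-NC and from 34521 to 36648 CPM with Adv-ABHD11. The summed level of 8 fibroblast markers ran from 13835 to 17085 CPM and from 10972 to 14741 CPM (2 higher, 4 lower), that of 7 endothelial markers from 222.3 to 256.3 CPM and from 438.3 to 497.6 CPM (7 higher), and that of 5 smooth muscle markers from 2541 to 3058 CPM and from 3789 to 4356 CPM (4 higher). Of 7 leukocyte markers 1 was higher and 3 lower (63.8 to 83.2 CPM and 58.2 to 64.0 CPM), and of 5 epicardial markers 1 was higher and 4 lower (135.4 to 150.7 CPM and 82.6 to 89.9 CPM). Lung epithelial markers, 6 of 6 higher, summed to at most 0.0513 CPM with Adv-NC, where Scgb1a1, Scgb3a2, Sftpc, Sftpa1 and Cyp2f2 were at 0, and to 132.6 to 144.1 CPM with Adv-ABHD11. Red blood cell markers, 4 of 4 tested higher, summed to 0.313 to 0.647 CPM and 22.8 to 25.9 CPM, with Hba-a1 and Alas2 at 0 in Adv-NC. These marker differences lie between the same groups as the virus, so this design cannot tell the effects of each apart. The part of these other cell types in the values below was not tested, and in bulk RNA fewer cells of a type and less RNA per cell cannot be told apart.

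With Adv-ABHD11, 7 of the 10 members fell, 2 rose and 1 did not pass the test (edgeR's quasi-likelihood test with Benjamini-Hochberg adjustment over all genes tested, threshold 0.05). The members that fell were both the abundant guards, Bcl2l1 and Mcl1, all 3 effectors and the BH3-only genes Bid and Bcl2l11. The members that rose were Bcl2, at a very low level in these cells, and the BH3-only gene Bmf. The 7 lower members stood beside a background of 29.5% of all genes tested and the 2 higher members beside 29.9%. At least 2-fold changes were seen in 4 of the 10 members (Bmf, Bcl2, Bok and Bid), beside 15.6% of all genes, and the libraries did not overlap for 9 of the 10, beside 63.2%. The median log2 fold change was -0.49 for the members and 0.016 for all genes tested. The members were chosen with earlier results of these data known, so these counts do not stand for the family as a whole. With the rest of the family added, 9 of 20 genes tested were higher, 8 lower and 3 did not pass (median log2 fold change -0.26).

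**Figure D1:**
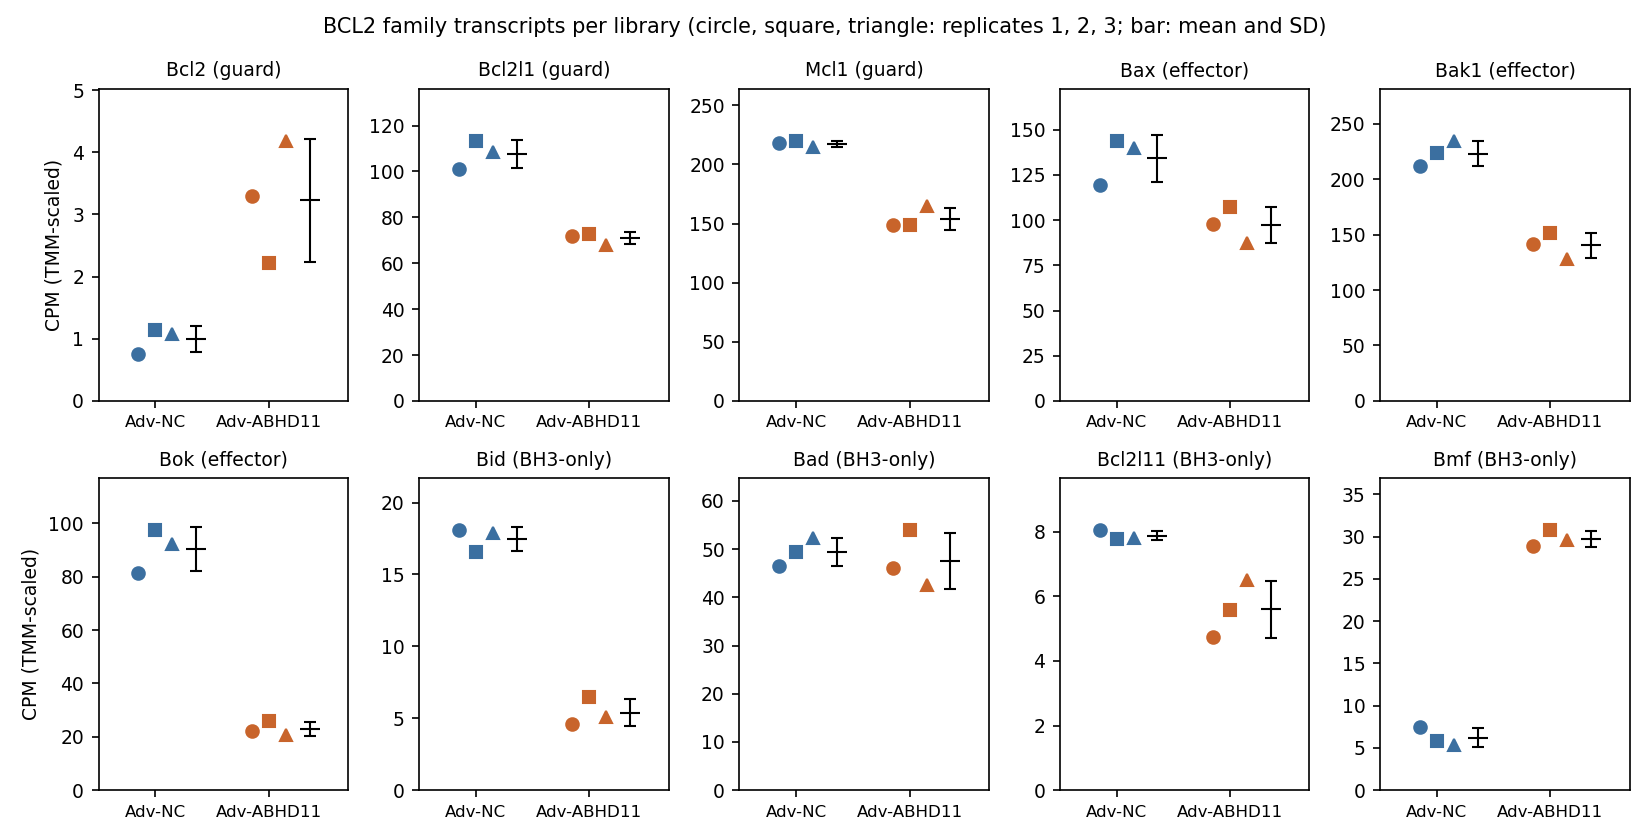
CPM (TMM-scaled, linear axes from 0) of each member in the 3 Adv-NC libraries (blue) and the 3 Adv-ABHD11 libraries (orange), with circle, square and triangle for replicates 1, 2 and 3 and black bars for the mean and SD. The groups are apart in every panel but that of Bad, and the highest Bmf value with Adv-NC, 7.50 CPM, lies far under the lowest with Adv-ABHD11, 28.8 CPM.

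Among the guards, Mcl1 and Bcl2l1 were the abundant transcripts, and both fell. Mcl1 (ENSMUSG00000038612.16, chromosome 3, 95658788 to 95663176, plus strand, GRCm38) encodes a short-lived guard on which heart muscle cells depend for survival. It stood at 217.9, 219.8 and 214.5 CPM in Adv-NC replicates 1 to 3 and at 148.5, 148.4 and 165.0 CPM in the Adv-ABHD11 libraries. The control libraries were nearly level and the groups lay well apart. This was a 1.41-fold decrease with a 95% interval of 1.25 to 1.60 (log2 fold change -0.50 ± 0.084 SE, adjusted p = 6.57e-05). Bcl2l1 (ENSMUSG00000007659.18, chromosome 2, 152780668 to 152831728, minus strand) encodes BCL-XL, a guard that binds BAX, BAK and most BH3-only proteins, and, by alternative splicing, a shorter form that promotes death, which gene-level counts do not separate. It was at 101.1, 113.3 and 108.5 CPM with Adv-NC and at 71.8, 72.9 and 68.0 CPM with Adv-ABHD11. The highest treated library was thus under the lowest control library, a 1.52-fold decrease with an interval of 1.34 to 1.72 (log2 fold change -0.60 ± 0.086, adjusted p = 1.07e-05).

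Bcl2 (ENSMUSG00000057329.7, chromosome 1, 106538178 to 106714274, minus strand), the founding guard of the family, was the rarest of the members and the only listed guard of the 3 that rose. The libraries held 14, 22 and 21 counts with Adv-NC and 55, 40 and 85 counts with Adv-ABHD11, which is 0.755, 1.15 and 1.08 CPM against 3.29, 2.21 and 4.18 CPM. Every treated library was above every control library, and the treated libraries differed among themselves by almost as much as their lowest value. The increase was 3.24-fold with an interval of 2.08 to 5.05 (log2 fold change 1.7 ± 0.304, adjusted p = 0.000116). In Adv-NC cells the mean CPM of Bcl2 was at or above that of only 6.04% of the genes tested, while Mcl1 was at or above 93.4%.

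All 3 effectors fell. Bak1 (ENSMUSG00000057789.14, chromosome 17, 27019810 to 27029009, minus strand) encodes BAK, which sits in the outer membrane at rest. Its CPM was 211.7, 223.3 and 234.4 with Adv-NC and 141.6, 151.1 and 128.4 with Adv-ABHD11, without overlap and 1.59-fold lower (interval 1.40 to 1.81, log2 fold change -0.67 ± 0.089, adjusted p = 4.73e-06). Bax (ENSMUSG00000003873.11, chromosome 7, 45461697 to 45466898, minus strand) encodes the effector that waits in the cytosol and moves to mitochondria on activation. Its CPM was 119.4, 143.8 and 139.7 with Adv-NC and 97.8, 107.3 and 87.5 with Adv-ABHD11. The gap between the groups was narrower than for Bak1, and the decrease was 1.38-fold (interval 1.19 to 1.59, log2 fold change -0.46 ± 0.099, adjusted p = 0.000611). Bax overlaps Gm45808 on the same strand, which had at most 9 counts in a library, and Bak1 overlaps Ggnbp1 on the opposite strand, which had 16 to 28.

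Bok showed the largest decrease of the 10 members. The gene (ENSMUSG00000026278.14, chromosome 1, 93685660 to 93695764, plus strand) encodes an effector that can form pores without being held back by the guards and whose protein is removed by the proteasome. It stood at 81.4, 97.4 and 92.1 CPM with Adv-NC and at 22.2, 25.9 and 20.7 CPM with Adv-ABHD11. All treated libraries were far below the lowest control library. The decrease was 3.94-fold (interval 3.37 to 4.61, log2 fold change -1.98 ± 0.108, adjusted p = 4.51e-11), a log2 fold change below the 5th percentile of all genes tested, which lay at -1.26.

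The BH3-only members split in all directions. Bmf (ENSMUSG00000040093.15, chromosome 2, 118528757 to 118549687, minus strand) encodes a BH3-only protein that is tethered to the actin-myosin cytoskeleton through a dynein light chain and is set free when cells detach. It was at 7.50, 5.79 and 5.39 CPM with Adv-NC and at 28.8, 30.7 and 29.6 CPM with Adv-ABHD11. The treated libraries agreed closely with each other, and the increase of 4.78-fold (interval 3.92 to 5.82, log2 fold change 2.26 ± 0.136, adjusted p = 1.65e-10) was the largest among the members. Bid (ENSMUSG00000004446.12, chromosome 6, 120891930 to 120916853, minus strand), which caspase-8 cuts to link death receptors to mitochondria, went the other way. Its CPM was 18.1, 16.5 and 17.9 with Adv-NC and 4.6, 6.47 and 5.12 with Adv-ABHD11, a 3.24-fold decrease (interval 2.60 to 4.03, log2 fold change -1.69 ± 0.151, adjusted p = 3.12e-08). The Bid gene overlaps Bcl2l13 on the opposite strand, whose counts were 1721, 1760 and 1749 with Adv-NC and 1944, 2100 and 2245 with Adv-ABHD11. Whether counting used strand is not given in the sources used here.

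Bcl2l11 (ENSMUSG00000027381.16, chromosome 2, 128126038 to 128162547, plus strand) encodes BIM, a BH3-only protein that binds all guards and is induced by forkhead factors. Its CPM was 8.04, 7.77 and 7.80 with Adv-NC and 4.72, 5.58 and 6.49 with Adv-ABHD11. The control libraries were almost level and the treated libraries were spread more widely below them, a 1.40-fold decrease (interval 1.10 to 1.78, log2 fold change -0.48 ± 0.166, adjusted p = 0.0179). The Bcl2l11 call was lost when Adv-ABHD11 replicate 1 was left out (adjusted p = 0.0829) and when libraries were scaled by their upper quartile (adjusted p = 0.0594). Bad (ENSMUSG00000024959.14, chromosome 19, 6941861 to 6951899, plus strand) encodes a BH3-only protein that is kept inactive by phosphorylation. It was at 46.6, 49.3 and 52.3 CPM with Adv-NC and at 46.2, 53.9 and 42.6 CPM with Adv-ABHD11. The groups overlapped, and the fold was 0.962 with an interval of 0.829 to 1.12 (log2 fold change -0.06 ± 0.102, adjusted p = 0.658). Bad was also the member whose deposited counts were fractional in all 6 libraries, and the gene overlaps Gpr137 on the opposite strand (359, 426 and 416 counts against 534, 558 and 617).

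To compare members with each other, CPM was divided by the exon length of each gene. Per kb of exon, the order with Adv-NC was Bak1 at 92.7 ± 4.73, Bax at 85.2 ± 8.28, Mcl1 at 63.6 ± 0.787, Bok at 49.1 ± 4.44, Bcl2l1 at 23.5 ± 1.33 and Bad at 19.3 ± 1.13 (mean ± SD of CPM per kb, n = 3). Bid followed at 4.93 ± 0.236, Bmf at 1.19 ± 0.214, Bcl2l11 at 0.980 ± 0.0184 and Bcl2 at 0.108 ± 0.0228 CPM per kb. Only Bak1 and Bax, neighbours at the top, overlapped between their libraries, although Bmf and Bcl2l11 came close. With Adv-ABHD11, Bax stood at 61.9 ± 6.29, Bak1 at 58.3 ± 4.72, Mcl1 at 45.1 ± 2.79, Bad at 18.6 ± 2.25, Bcl2l1 at 15.5 ± 0.554 and Bok at 12.5 ± 1.48 CPM per kb. Bmf at 5.66 ± 0.184 now exceeded Bid at 1.52 ± 0.272, and Bcl2l11 at 0.698 ± 0.110 and Bcl2 at 0.352 ± 0.108 CPM per kb remained the rarest. Bok thus moved from rank 4 to rank 6 and Bad from rank 6 to rank 4, and Bmf and Bid exchanged ranks 7 and 8. With Adv-ABHD11 too, only Bax and Bak1 overlapped as neighbours (lowest Bax library 55.5, highest Bak1 library 62.8 CPM per kb). Bad over Bcl2l1 (lowest 16.7, highest 15.9) and Bcl2l1 over Bok (lowest 14.8, highest 14.1) came close. With the longest transcript in place of all exons as the length, Bax ranked above Bak1 in both groups and Bcl2l11 above Bmf with Adv-NC, and the other ranks were the same.

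The summed level of the 10 members was 340.6 ± 18.3 CPM per kb with Adv-NC and 220.0 ± 13.0 CPM per kb with Adv-ABHD11. Effectors made up most of it, at 227.0 ± 16.5 and 132.7 ± 12.4 CPM per kb, and their share of the sum was 66.6 ± 1.33% and 60.2 ± 2.25%. Guards summed to 87.2 ± 1.72 and 60.9 ± 2.35 CPM per kb, a share of 25.6 ± 1.12% and 27.8 ± 2.57%. The sum of the BH3-only members was level at 26.4 ± 0.95 and 26.5 ± 2.61 CPM per kb, and its share went from 7.76 ± 0.340% to 12.0 ± 0.497%. Within it Bmf went from 0.351% to 2.58% of the sum of the 10 members and Bid from 1.45% to 0.689%. These sums and shares depend on the choice of the 10 members and leave out the rest of the family. Of the genes left out, Bnip3 was at 17.7 and 80.4 CPM per kb and Bbc3 at 11.7 and 8.29 CPM per kb. Bok accounted for 14.4 ± 0.603% of the sum of the 10 members with Adv-NC and 5.65 ± 0.332% with Adv-ABHD11.

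**Figure D2:**
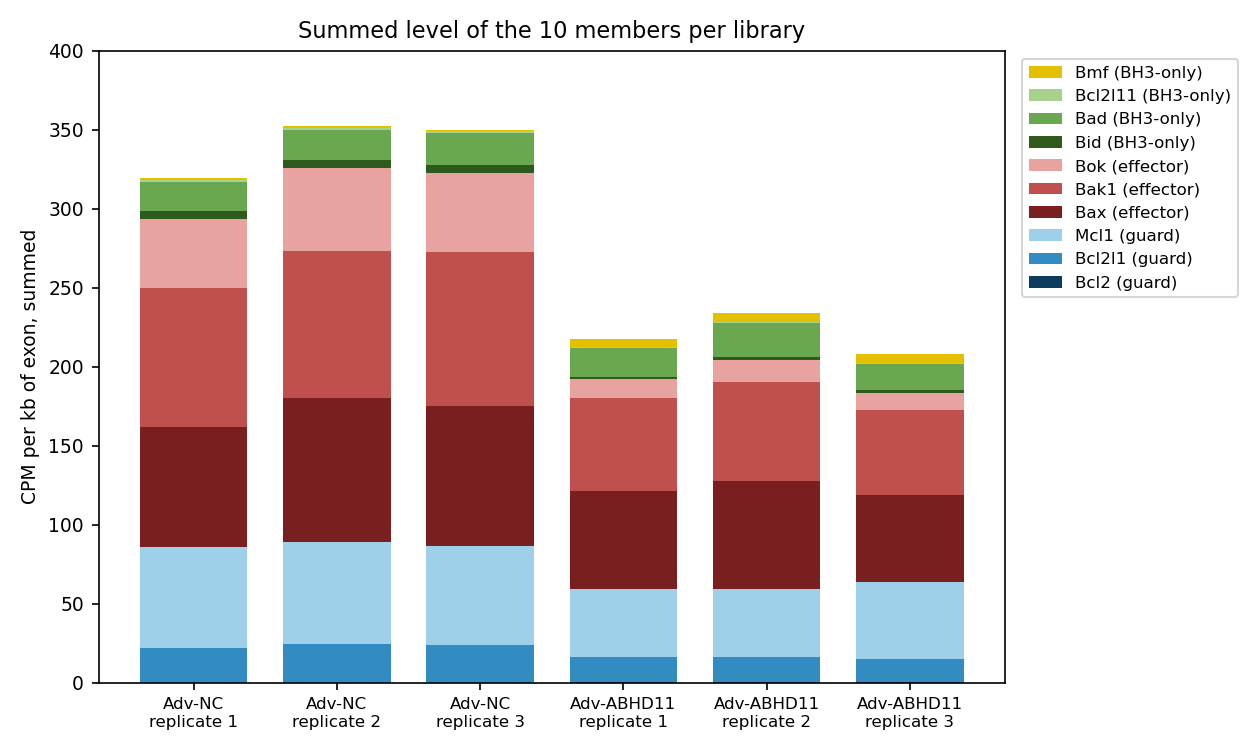
Stacked CPM per kb of exon of the 10 members in each of the 6 libraries (blue shades: guards; red shades: effectors; green shades and yellow: BH3-only members). The stack is between 319.5 and 352.1 CPM per kb under Adv-NC and between 208.2 and 234.0 under Adv-ABHD11, with a thinner Bok band and a thicker yellow Bmf band in the latter.

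Ratios of guards to effectors within a library do not depend on how libraries are scaled. The Bcl2 to Bax ratio of counts per kb was 0.00109, 0.00137 and 0.00133 under Adv-NC, and under Adv-ABHD11 it was 0.00579, 0.00355 and 0.00822. It was 4.40-fold higher with Adv-ABHD11 by the means of its log2 values, with no overlap, but Bcl2 stayed far below Bax in every library. The Bcl2l1 to Bax ratio was 0.291, 0.271 and 0.267 against 0.252, 0.233 and 0.267, and the groups overlapped. The Mcl1 to Bax ratio was 0.841, 0.705 and 0.708 against 0.701, 0.638 and 0.870 and overlapped as well. Summed guards over summed effectors gave 0.413, 0.376 and 0.367 with Adv-NC and 0.447, 0.411 and 0.529 with Adv-ABHD11. These ranges overlapped by a narrow margin, and the ratio was 1.2-fold higher by the log2 means. The effector sum includes Bok, which went from 49.1 ± 4.44 to 12.5 ± 1.48 CPM per kb. A ratio of guards to Bax and Bak1 alone was not computed, so the higher value is not to be read as a shift against those effectors. No p is given for these combined values, since the members were chosen with results of these data known.

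**Figure D3:**
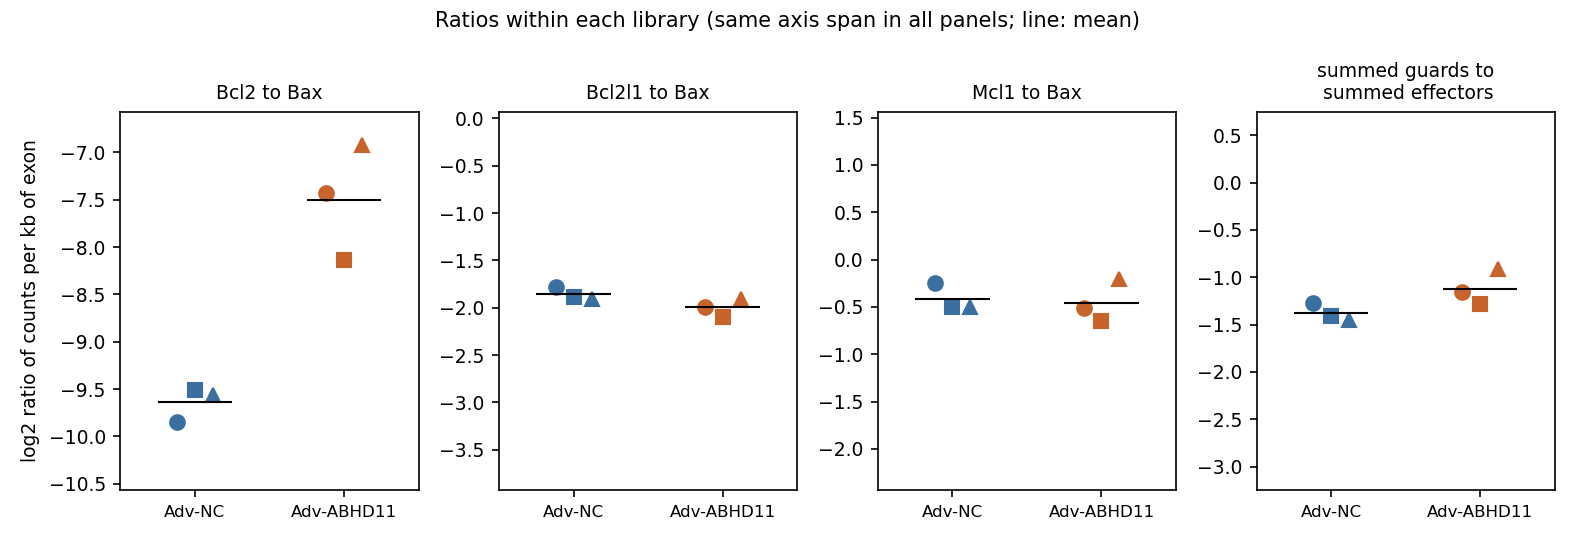
Log2 ratio of counts per kb of exon within each library (blue: Adv-NC; orange: Adv-ABHD11; circle, square and triangle: replicates 1, 2 and 3; line: mean), with the same axis span in every panel. The Bcl2 to Bax points of the groups are far apart, at a mean of -9.64 and -7.50, and the points of the other ratios overlap.

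The starts of the genes that moved most were set side by side. RefSeq (GRCm38.p6) gave 16 start windows for the 10 members, and the 250 bases before each start were searched on both strands. Some windows lie in annotated exons of their own gene. This holds for all 250 bases of the Bak1 window and of Bcl2l1 windows 2 and 3. It also holds for 197 bases of Bad window 2, 29 of the Bid window and 1 of Bmf window 1. The most upstream window is shown for the members that rose, Bmf (chr2:118549687-118549936, minus strand) and Bcl2 (chr1:106714291-106714540, minus strand), for those that fell most, Bok (chr1:93685325-93685574, plus strand) and Bid (chr6:120916825-120917074, minus strand), and for Bax (chr7:45466899-45467148, minus strand), the only one with a hypoxia response core. Capitals mark matches to any of the motifs searched, each in the 5′ to 3′ direction of its gene.
Bmf: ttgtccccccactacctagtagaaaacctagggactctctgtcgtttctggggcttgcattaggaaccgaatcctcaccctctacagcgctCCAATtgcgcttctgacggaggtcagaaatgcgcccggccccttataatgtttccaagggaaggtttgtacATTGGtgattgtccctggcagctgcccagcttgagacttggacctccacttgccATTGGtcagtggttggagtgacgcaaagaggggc
Bcl2: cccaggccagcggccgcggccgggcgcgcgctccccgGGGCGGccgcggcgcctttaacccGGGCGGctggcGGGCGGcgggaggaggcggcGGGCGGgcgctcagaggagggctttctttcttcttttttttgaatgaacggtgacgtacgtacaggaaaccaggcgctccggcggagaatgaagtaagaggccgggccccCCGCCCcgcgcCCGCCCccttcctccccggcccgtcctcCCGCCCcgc
Bok: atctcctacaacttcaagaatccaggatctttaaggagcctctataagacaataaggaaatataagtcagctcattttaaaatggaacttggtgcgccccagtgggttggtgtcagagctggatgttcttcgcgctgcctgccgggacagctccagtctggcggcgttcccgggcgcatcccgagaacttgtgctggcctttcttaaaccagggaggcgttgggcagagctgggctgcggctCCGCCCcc
Bid: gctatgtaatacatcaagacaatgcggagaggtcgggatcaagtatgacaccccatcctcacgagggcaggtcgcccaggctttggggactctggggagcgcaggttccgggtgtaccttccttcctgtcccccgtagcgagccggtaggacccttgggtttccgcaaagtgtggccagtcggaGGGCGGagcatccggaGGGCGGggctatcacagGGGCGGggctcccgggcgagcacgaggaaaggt
Bax: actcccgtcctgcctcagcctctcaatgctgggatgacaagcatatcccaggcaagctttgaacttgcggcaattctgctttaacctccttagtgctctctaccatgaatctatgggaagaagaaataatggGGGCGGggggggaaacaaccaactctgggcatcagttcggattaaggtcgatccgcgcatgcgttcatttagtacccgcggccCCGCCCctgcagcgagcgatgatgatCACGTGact
The GC box (GGGCGG) was found in the first window of 7 of the 10 members, Bcl2, Mcl1, Bax, Bok, Bid, Bad and Bcl2l11. Over all starts it was found in 8 of the 16 member windows, beside 32.7% of the 32851 windows of the whole table. The Bcl2 window held 7 matches, and its GC content was 74.8%, beside a median of 52.4% over all windows. None of the 3 Bmf windows held a GC box, and the one shown held 3 CCAAT boxes (CCAAT, found in 33.8% of all windows). The hypoxia response core (ACGTG, in 16.6% of all windows) matched only in the Bax window, on both strands of one palindromic E-box (CACGTG, in 6.02% of all windows). The forkhead site (TGTTTAC, in 3.17% of all windows) matched in the first Bcl2l11 window, and the antioxidant response core (TGACNNNGC, in 10.2%) in the third Bcl2l1 window. The AP-1 site (TGANTCA, in 6.75%), the cAMP response element (TGACGTCA, in 1.55%) and the TATA box (TATAAA, in 12.4%) had no match in the 16 windows. These matches describe letters in a window and say nothing of binding.

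The rest of the family was represented by 15 further genes. Of the 10 that could be tested, 7 were higher, 1 lower and 2 did not pass, with a median log2 fold change of 0.43, beside 29.9% higher and 29.5% lower among all genes. Bnip3, an atypical BH3 protein of the outer membrane that acts in mitophagy and is a classical hypoxia gene, rose from 40.0 ± 3.26 to 182.1 ± 15.6 CPM (4.55-fold, adjusted p = 3.81e-12). Its relative Bnip3l rose from 55.8 ± 3.06 to 96.9 ± 10.05 CPM (1.74-fold, adjusted p = 1.35e-06), and the BH3-only gene Bik from 3.24 ± 0.423 to 5.82 ± 0.394 CPM (1.80-fold, adjusted p = 0.000913). The guard BCL-W, encoded by Bcl2l2, rose from 25.1 ± 2.95 to 32.8 ± 0.777 CPM (1.31-fold, adjusted p = 0.00472), while Mcl1 and Bcl2l1 fell. The p53-induced BH3-only gene Bbc3 (PUMA) fell from 24.8 ± 3.19 to 17.6 ± 1.92 CPM (1.41-fold, adjusted p = 0.00227). Pmaip1 (NOXA), which binds MCL1, was at 1.013 ± 0.161 and 0.530 ± 0.283 CPM (adjusted p = 0.0753), a difference that passed without Adv-ABHD11 replicate 3 (adjusted p = 0.0267). Of the near-identical Bcl2a1 guards, whose reads cannot be assigned to a copy with certainty, Bcl2a1b rose from 0.767 ± 0.225 to 1.69 ± 0.501 CPM (adjusted p = 0.0105, but 0.0668 without Adv-ABHD11 replicate 2). Its copy Bcl2a1d, named here after its values were seen, was at 0.648 ± 0.186 and 0.358 ± 0.197 CPM (log2 fold change -0.88, adjusted p = 0.1445), so no direction is given for the Bcl2a1 guards as a group. Bcl2l10 had 0 counts in all libraries, which allows up to 0.148 to 0.179 CPM in a library at 3 counts, and Bcl2a1a, Hrk, Bcl2l14 and Bcl2l15 had at most 4 counts in any library and were not tested.

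**Figure D4:**
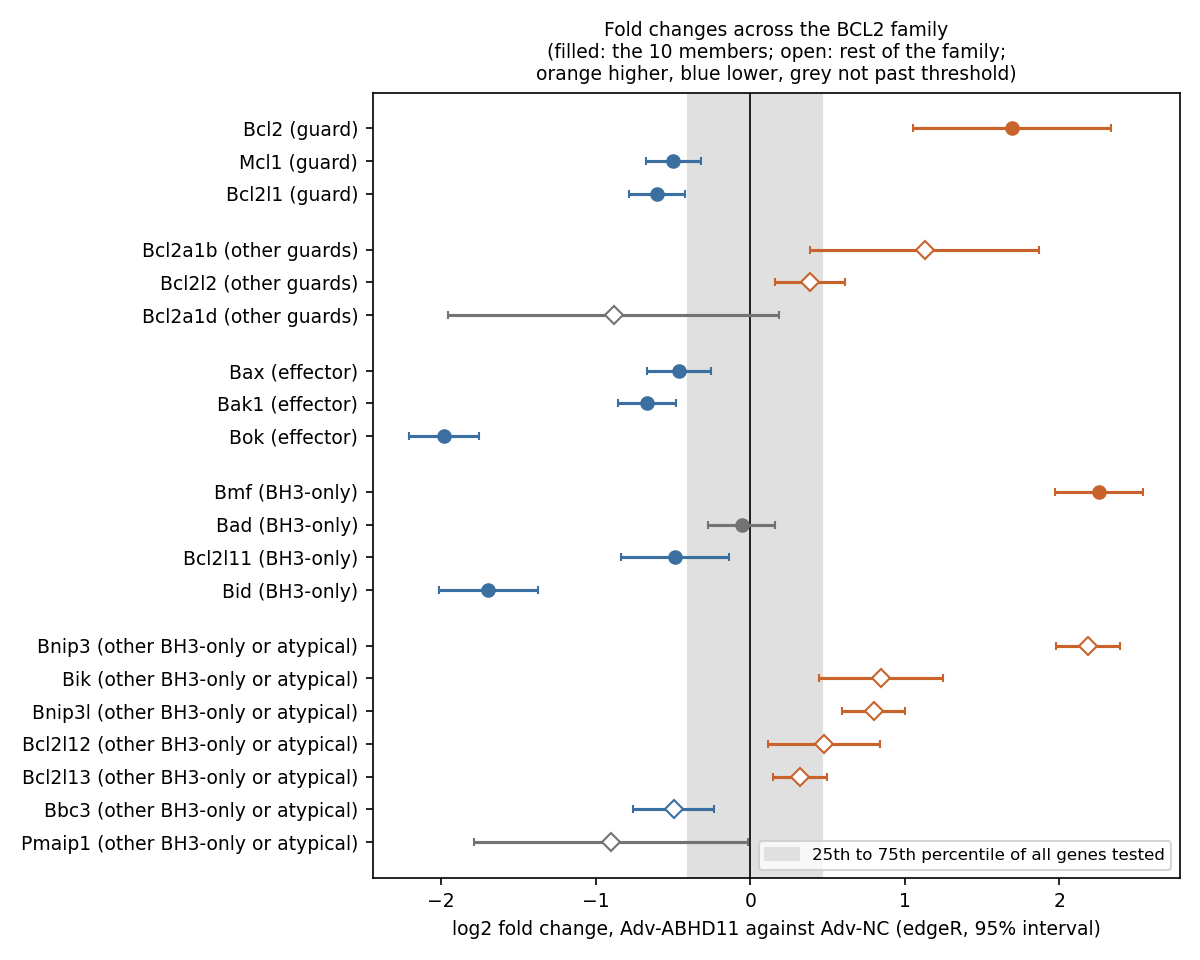
Log2 fold change of Adv-ABHD11 against Adv-NC with its 95% interval for the 10 members (filled) and the 10 tested genes of the rest of the family (open), ordered by role; the grey band spans the 25th to 75th percentile of all genes tested. Bok, Bid, Bmf, Bnip3 and Bcl2 lie farthest from 0, and the filled points lean left of it while the open points lean right.

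Downstream of the membrane lie the apoptosome and the caspases. Of 8 tested genes 4 were higher and 1 lower, beside 29.9% and 29.5% of all genes, with a median log2 fold change of 0.32. Cycs, cytochrome c of the respiratory chain and the signal that leaves through the pores, rose from 332.4 ± 21.8 to 614.1 ± 140.7 CPM (1.85-fold, adjusted p = 9.37e-06). Apaf1, the scaffold that cytochrome c activates, rose from 10.48 ± 1.37 to 14.7 ± 0.497 CPM (1.40-fold, adjusted p = 0.00516). The executioner caspase gene Casp6 rose 1.90-fold (adjusted p = 7.48e-06). Cflar, which encodes FLIP, an inhibitor of caspase-8 activation, rose from 12.9 ± 1.21 to 16.7 ± 0.903 CPM (1.30-fold, adjusted p = 0.0161). The Cflar call was lost on leaving out the second (adjusted p = 0.0714) or the third (0.0684) library of Adv-NC or the third of Adv-ABHD11 (0.0796). The initiator Casp9 was at 23.0 ± 2.16 and 24.97 ± 0.699 CPM (log2 interval -0.11 to 0.34, adjusted p = 0.366).

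The next list held inhibitors of caspases and the proteins that mitochondria release against them. Of 9 tested genes 4 were higher and 3 lower, the latter near the 29.5% of all genes (29.9% were higher), and the median log2 fold change was 0.30. Xiap, which blocks active caspases, rose from 11.3 ± 1.06 to 20.4 ± 2.61 CPM (1.81-fold, adjusted p = 2.64e-05), while Htra2, a mitochondrial protease that counters XIAP once released, fell from 63.0 ± 1.26 to 44.0 ± 4.47 CPM (1.43-fold, adjusted p = 0.000155). Diablo, another released protein of this list, was at 58.6 ± 2.23 and 55.3 ± 5.91 CPM and did not pass (adjusted p = 0.4615). It and the other listed inhibitors are named here after their values were seen. Those inhibitors were split. Birc3 fell 1.39-fold (adjusted p = 0.0109) and Birc5 1.43-fold (adjusted p = 0.0127). Birc2 rose 1.44-fold with overlapping libraries (adjusted p = 0.0203), and Birc6 did not pass (adjusted p = 0.0997). Aifm1 (1.56-fold, adjusted p = 3.26e-05) and Endog (1.47-fold, adjusted p = 0.000329), which act in caspase-independent death and have housekeeping roles inside mitochondria, rose. Among 7 genes of the outer membrane and the permeability pore, 2 were higher and 1 lower (median 0.14), no more than the 29.9% and 29.5% of all genes. The channel gene Vdac1 rose 1.37-fold (adjusted p = 0.000229), Ppif, the cyclophilin that opens the permeability pore, 1.36-fold (adjusted p = 0.000522), and the import receptor Tomm20 fell 1.27-fold (adjusted p = 0.0175). The Tomm20 call was lost with upper-quartile scaling (adjusted p = 0.0887), and on leaving out the second Adv-NC library (0.0673), the first Adv-ABHD11 library (0.106) or the third one (0.0809).

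Upstream stand transcription factors known to induce BH3-only genes. Of the 7 inducers that could be tested, 4 fell, beside 29.5% of all genes, and 2 rose, near the 29.9% of all genes, and the median of their log2 fold changes was -0.66. Jun, which raises Bcl2l11 in stressed neurons, fell from 125.2 ± 10.6 to 28.8 ± 3.75 CPM (4.35-fold, adjusted p = 1.74e-11), and Ddit3 (CHOP), the factor of endoplasmic reticulum stress, from 193.4 ± 7.41 to 95.5 ± 11.3 CPM (2.02-fold, adjusted p = 5.88e-08). Trp53, the gene of p53, which induces Bax, Bbc3 and Pmaip1, fell from 187.4 ± 13.6 to 106.2 ± 6.12 CPM (1.77-fold, adjusted p = 3.88e-07), and E2f1 fell 1.58-fold (adjusted p = 0.000969). Of the genes that rose, the forkhead gene Foxo1, named here after its values were seen, went from 17.6 ± 2.11 to 26.3 ± 4.68 CPM without overlap (1.49-fold, adjusted p = 0.00131). The other forkhead gene, Foxo3, whose product induces Bcl2l11, was at 39.4 ± 7.41 and 48.8 ± 7.30 CPM, a 1.24-fold rise that passed narrowly (adjusted p = 0.0489). Foxo3 did not pass under 8 of the 16 alternatives, where adjusted p ran from 0.0518 to 0.292.

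Of 17 genes whose products modify, bind or degrade family proteins, 4 were higher, 4 lower and 9 did not pass, with a median log2 fold change of 0.018. Both shares were under those of all genes, 29.9% higher and 29.5% lower. Pim1, a kinase that phosphorylates BAD, fell from 74.6 ± 5.74 to 24.8 ± 1.24 CPM (3.00-fold, adjusted p = 2.29e-10). Ywhaz, a 14-3-3 protein that holds phosphorylated BAD in the cytosol, fell from 215.5 ± 10.05 to 147.9 ± 3.38 CPM (1.46-fold, adjusted p = 2.25e-05). The listed 14-3-3 gene Ywhab (log2 fold change -0.118, adjusted p = 0.220) did not pass. Neither did the kinase genes Akt1 (-0.195, adjusted p = 0.0748) and Akt2 (0.028, adjusted p = 0.815). Ywhab, Akt1 and Akt2 are named here after their values were seen. Mapk9, the stress kinase JNK2, rose 1.58-fold (adjusted p = 1.53e-05), and Tmbim6, which encodes BAX inhibitor 1 of the endoplasmic reticulum, fell 1.38-fold (adjusted p = 0.000228).

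**Figure D5:**
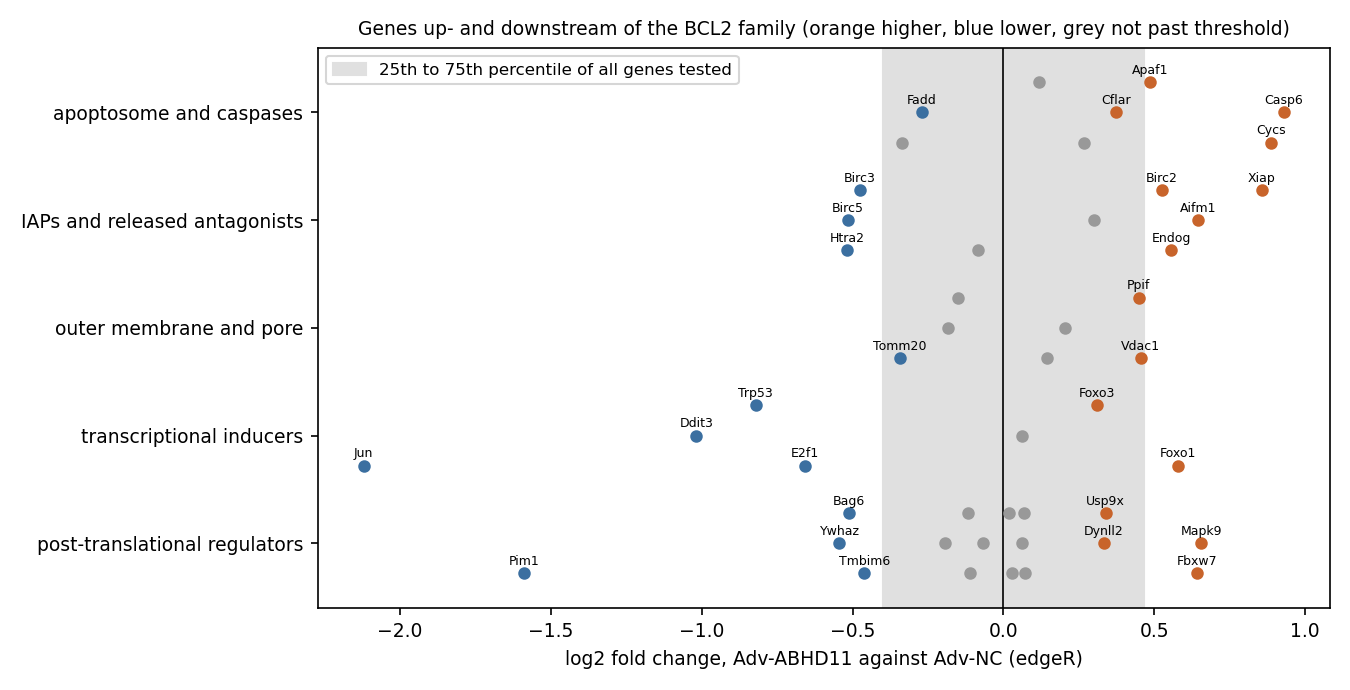
Log2 fold change of the tested genes of 5 lists up- and downstream of the family (orange: higher; blue: lower; grey: not past the threshold), with the 25th to 75th percentile of all genes tested as a grey band. Jun and Pim1 lie farthest to the left, at -2.12 and -1.59, and Casp6 and Cycs farthest to the right, at 0.93 and 0.89.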

How the data were processed

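The authors deposited one table per library with an expected count per gene symbol, estimated and not scaled to library size. The submitters' processing notes name Trimmomatic 0.39, HISAT2, RSEM, DESeq2 and the build mm10, without the role of each, while annotation, read filters and strandedness are not stated there. As a method, RSEM divides reads that fit several genes by an estimate, which touches near-identical copies. Of 21763 rows per file, 22 repeated a symbol, and the row with most counts was kept. Counts were rounded, since 8.96% to 10.2% of values above 0 were fractional.

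Groups were compared in edgeR 4.0.16 (R 4.3.3): filterByExpr (minimum count 10, minimum total 15), TMM, quasi-likelihood F test, Benjamini-Hochberg over 12790 genes, threshold 0.05, no replicate block. Standard errors are the log2 fold change divided by the root of F, and 95% intervals use the fit's t quantile. Alternatives included DESeq2 1.42.0 and limma 3.58.1 (voom). Floors cover counting error only. The procedure was tested on simulated counts with known changes, balanced in direction, in a small part of the genes. That test does not cover scaling or calls under a difference as broad as that between these groups.

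Coordinates and exon lengths came from GENCODE M21 (GRCm38, the assembly of mm10) and start windows from RefSeq GRCm38.p6, in which all 10 members matched. The members, gene lists and motifs were chosen with earlier results of these data known. Named were all members, in each list up to 4 called genes, taken by adjusted p, and 10 genes whatever their test. Genes marked above as named after their values were seen lie outside this rule and outside the counts of named genes below. A few listed genes are not reported here and were left out of the counts and medians of their lists. No list was tested as a set.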

Additional observations from a re-analysis of the deposited data

How the results depend on the processing

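The counts of 2 higher and 7 lower members were obtained again with the replicate block, RLE size factors, library size only, DESeq2, limma voom, no filter, a stricter filter (CPM of at least 1 in 3 libraries), unrounded counts and mtDNA-encoded genes left out. They were 2 and 6 with upper-quartile scaling, which shifted the all-gene median of the log2 fold change from 0.016 to 0.12 and the numbers of higher and lower genes from 3821 and 3768 to 4571 and 3091, and 2 and 6 without Adv-ABHD11 replicate 1, Bcl2l11 being the call lost in both. Of 160 member values under 16 alternatives, 156 kept their direction and their side of the threshold. Bad changed sign with upper-quartile scaling (0.052), and leaving out 1 library at a time put it between -0.15 and 0.013. The log2 Mcl1 to Bax difference of -0.037 ran from -0.16 to 0.060 in the same way, and the cause of these sign changes was not tested. Bcl2, the member with the fewest counts, ran from 1.46 without Adv-ABHD11 replicate 3 to 1.92 without Adv-ABHD11 replicate 2, and Bmf from 2.16 to 2.42 under all 16 alternatives. Of 447 values of the 28 other named genes, 430 kept direction and side, 16 lost the call and 1 gained it. Same-numbered libraries did not deviate together (correlations of 0.010, 0.20 and -0.10), so the numbers were not taken to pair them.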
